A study of Sus scrofa with 22 samples.

Results

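MDH1, IDH3A, IDH3B and SUCLA2 encode enzymes of the tricarboxylic acid cycle or, for MDH1, the cytosolic partner of a cycle enzyme. Their transcripts were followed in pig muscle-like tissue from late gestation to 188 days after birth. All probe sets annotated to a single one of these 4 symbols were taken. The rule gave 4 of the 6765 gene symbols on the array and 5 of the 23999 probe sets tested, because IDH3A had 2. No probe set annotated to several genes included any of the 4.

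The series held 22 Affymetrix porcine arrays of offspring of German Landrace gilts, and every dam had received the gestational adequate protein (AP) diet. Groups differed only in ontogenetic stage: 94 days post conception (94 dpc, 6 animals), and 1, 28 and 188 days post natum (1 dpn, 6 animals; 28 dpn, 6 animals; 188 dpn, 4 animals). Each stage was sampled from offspring of 3 gilts, and the gilt of each animal was not given, so p-values that treat animals as independent are too small if littermates resemble each other. The values are signal intensities that the authors had scaled to a common trimmed mean near 500.2, and changes are differences of log2(signal + 16).

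The labels name liver, whereas the series title names muscle. All 9 measured skeletal muscle markers were above background on all 22 arrays, with a summed signal from 250013 to 701143. The medians of this sum were 293634 at 94 dpc, 454219 at 1 dpn, 612554 at 28 dpn and 574363 at 188 dpn. The 13 measured hepatocyte markers summed to between 2192 and 56719.9, highest at 94 dpc (median 18526, against 4216 at 1 dpn, 3197 at 28 dpn and 4206 at 188 dpn). Of these markers 0 were below background on all arrays. The number of arrays below background ran from 0 for APOA1 (signal 646 to 12788) to 14 for APOB, with 4 for ALB. The tissue is therefore called muscle-like. Background was a signal of 69.7, and all 5 probe sets lay above it on every array. In whole tissue, fewer cells of a type and less RNA per cell cannot be told apart. The summed endothelial markers (10 measured) had medians of 17518, 5890.2, 12989 and 4653 from the youngest to the oldest stage, and the summed matrix markers (6 measured) 59017, 19445, 27661 and 14759. The part of muscle, endothelial and matrix cells in the results below was not tested.

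In the tricarboxylic acid cycle, acetyl groups from pyruvate, fatty acids and ketone bodies are oxidised in the mitochondrial matrix, and the electrons are passed to the respiratory chain. Isocitrate dehydrogenase 3 makes the NAD-dependent oxidative step to 2-oxoglutarate as a complex of a catalytic alpha subunit (IDH3A) with a beta (IDH3B) and a gamma (IDH3G) subunit. Succinyl-CoA synthetase pairs a common alpha subunit (SUCLG1) with either an ADP-forming beta subunit (SUCLA2) or a GDP-forming one (SUCLG2). MDH1 is cytosolic malate dehydrogenase, which works with the mitochondrial form MDH2 and the aspartate aminotransferases GOT1 and GOT2 in the malate-aspartate shuttle that carries reducing equivalents from glycolysis into mitochondria.

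By their brightest probe sets all 4 genes were higher at 1 dpn than at 94 dpc, and afterwards they parted. No stage lay between, so the time of the rise within this interval is not known. MDH1 fell to a level 1.70-fold above the fetal one at 188 dpn. This excess was not called after quantile normalization, or when 188 dpn replicate 3 or replicate 4 was left out. IDH3A stayed 2.90-fold and SUCLA2 6.76-fold above the fetal level, whereas IDH3B returned to the fetal level by 28 dpn and was 1.98-fold below it at 188 dpn. Each of the 5 probe sets differed between stages (limma F test over the 4 stages, adjusted p from 3.7e-09 to 3.7e-07), as did 51.4% of all probe sets. On 4 newborn arrays the 5′ control signal was much lower than on all others, and the values that moved with this are given beside each gene.

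**Figure D1:**
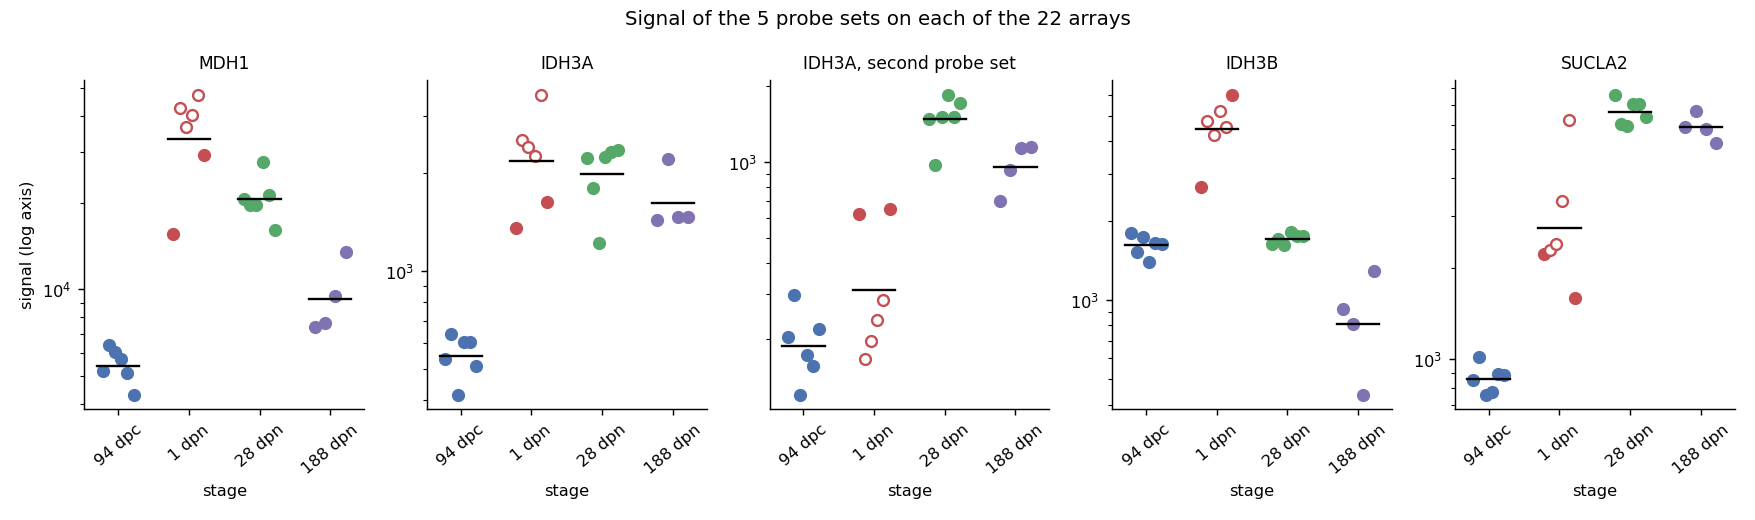
Signal (log axis) of the 5 probe sets on each of the 22 arrays by stage; points are animals, open points are the 4 newborn arrays with low 5′ control signal, and bars are means on the log2(signal + 16) scale. IDH3B is highest at 1 dpn and lowest at 188 dpn, whereas SUCLA2 is high at both 28 and 188 dpn.

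The newborn arrays differed in RNA evenness. In replicates 2 to 5 the ratio of 5′ to 3′ signal of the GAPDH control was 0.140 to 0.332. In replicates 1 and 6 it was 1.14 and 1.15, and on the 16 arrays of other stages it was 0.731 to 1.26. The EF1A control gave 0.102 to 0.146 on the same 4 arrays, against 0.534 to 0.953 at the other stages. An actin control gave 0.0306 to 0.0386 against 0.0989 to 0.238. A second GAPDH control overlapped, at 0.496 to 0.671 against 0.584 to 0.839. Newborn replicates 2 to 5 are called the low arrays below, and the other 18 arrays the even arrays. The split was made on control probe sets only, and its cause was not tested. On the low newborn arrays summed macrophage markers were 1051 to 1343, against 2142 to 3067 on the even ones. Summed skeletal muscle markers were 431617 to 508994 against 327403 to 363107, and the other marker sums overlapped. In the fit with array weights the even newborn arrays had the lowest weights of the 22 (0.274 and 0.387). Scaling also moved the whole table. From 94 dpc to 1 dpn the median change over all probe sets was −0.08 as deposited and 0.18 when each array was centred on its median. The share of called probe sets that were higher was then 33.5% as deposited, 47.4% after quantile normalization and 57.7% after centring. From 1 to 28 dpn these shares were 62.4%, 49.8% and 39.7%, from 28 to 188 dpn 30.8%, 44.2% and 60.1%, and from 94 dpc to 188 dpn 37.7%, 48.6% and 56.2%.

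MDH1, the cytosolic malate dehydrogenase, had the largest rise of the 5 probe sets between 94 dpc and 1 dpn. Its signal at 94 dpc was 4317 at the lowest, 5465 at the median and 6435 at the highest (mean 5478 ± 759, SD, n = 6). At 1 dpn the lowest, median and highest signals were 15502, 38438 and 47340.3 (mean 35273 ± 11435, n = 6). At 28 dpn they were 16060.5, 20105 and 27618 (mean 20813 ± 3790.2, n = 6), and the 4 animals of 188 dpn had 7431, 7657, 9498 and 13499.8 (mean 9521 ± 2809). Every newborn thus lay above every fetus, every 188 dpn animal lay between the fetuses and the 28 dpn animals, and only the newborn and 28 dpn signals overlapped.

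The rise of MDH1 from 94 dpc to 1 dpn was log2 2.61 (SE 0.23, 6.11-fold, limma adjusted p = 4.1e-08). It was larger than 99.8% of the changes over all probe sets. On the even arrays alone it was 1.97 (adjusted p = 4.9e-05). From 1 to 28 dpn MDH1 fell by 0.69 (SE 0.23, adjusted p = 0.0325). That call did not hold on the even arrays, where the change was −0.05 (adjusted p = 0.925), nor with the GAPDH ratio as a covariate (−0.22, adjusted p = 0.633), and it was lost when any of 8 single arrays was left out: 1 dpn replicates 2, 3, 4 or 5 or 28 dpn replicates 1, 2, 3 or 6 (highest adjusted p = 0.0755). From 28 to 188 dpn it fell by 1.15 (SE 0.26, 2.22-fold, adjusted p = 0.0048). The remaining excess over the fetal level at 188 dpn was 0.76 (SE 0.26, adjusted p = 0.0226). This excess was 0.41 after quantile normalization (adjusted p = 0.189). It was 0.58 without 188 dpn replicate 4 (adjusted p = 0.108) and 0.75 without 188 dpn replicate 3 (adjusted p = 0.0508). The order of the levels was therefore 1 dpn, 28 dpn, 188 dpn and 94 dpc, with the first pair not separated on the even arrays.

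IDH3A encodes the catalytic alpha subunit of isocitrate dehydrogenase 3. With its brighter probe set, the lowest, median and highest signals were 416, 569 and 639 at 94 dpc (mean 551 ± 81.8, n = 6). They were 1356, 2330.2 and 3482 at 1 dpn (mean 2277 ± 747, n = 6) and 1222, 2236 and 2350.1 at 28 dpn (mean 2028 ± 442, n = 6). The 4 animals of 188 dpn had 1436, 2203, 1461 and 1469 (mean 1642 ± 374). All postnatal animals lay above all fetuses, and the 3 postnatal stages overlapped one another.

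The rise of IDH3A from 94 dpc to 1 dpn was 1.96 (SE 0.22, 3.90-fold, adjusted p = 5.7e-07), and 1.42 on the even arrays (adjusted p = 0.000495). Later steps did not pass the test. The change from 1 to 28 dpn was −0.14 (95% confidence interval −0.58 to 0.31, adjusted p = 0.713), against 0.41 with the even arrays (adjusted p = 0.313). In the last step, 28 to 188 dpn, the change was −0.29 (interval −0.79 to 0.21, adjusted p = 0.508). At 188 dpn IDH3A was still 1.54 above the fetal level (SE 0.24, 2.90-fold, adjusted p = 2.3e-05).

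The second probe set of IDH3A was dimmer and gave another course after birth. Its lowest, median and highest signals were 120.5, 188 and 297 at 94 dpc (mean 195 ± 61.0, n = 6) and 167, 260.4 and 655 at 1 dpn (mean 360.1 ± 219, n = 6). At 28 dpn they were 970.3, 1507 and 1847 (mean 1504 ± 298, n = 6), and the 188 dpn animals had 699.9, 928, 1134 and 1146 (mean 977 ± 210.0). The 4 low newborn arrays lay within the fetal range, and the 2 even newborn arrays lay between the fetuses and the 28 dpn animals.

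Over all arrays this probe set changed by 0.69 from 94 dpc to 1 dpn (SE 0.29, adjusted p = 0.0772) and rose by 2.18 from 1 to 28 dpn (SE 0.29, 4.54-fold, adjusted p = 1.5e-05). On the even arrays the first step was 1.68 (adjusted p = 0.00033) and the next 1.19 (adjusted p = 0.0082). Against the fetus it was 2.26 higher at 188 dpn (SE 0.33, 4.78-fold, adjusted p = 8.8e-06). Both probe sets thus placed IDH3A above the fetal level at 28 and 188 dpn, and they disagreed on the newborn. Over the 22 arrays they correlated at r = 0.51, and over the 18 even arrays at r = 0.94. These correlations are descriptions, since the arrays share stage and scaling.

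The newborn disagreement followed the low arrays. On the even newborn arrays the brighter IDH3A probe set had 1356 and 1633, and on the low ones 2257 to 3482. The second probe set went the other way, with 621 and 655 on the even arrays and 167 to 284 on the low ones. MDH1 had 15502 and 29279 on the even arrays and 36559 to 47340.3 on the low ones. SUCLA2 had 1592 and 2228 against 2298 to 6252, and IDH3B overlapped, with 2678 and 6013 against 4209 to 5202. Low minus even was 0.96 for MDH1, 0.81 and −1.49 for the IDH3A probe sets, 0.22 for IDH3B and 0.80 for SUCLA2. Over all probe sets, 16.5% had every low array above both even ones and 10.6% had every low array below them. With 2 and 4 arrays these are values with no test, and the part of RNA evenness in them was not tested.

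**Figure D2:**
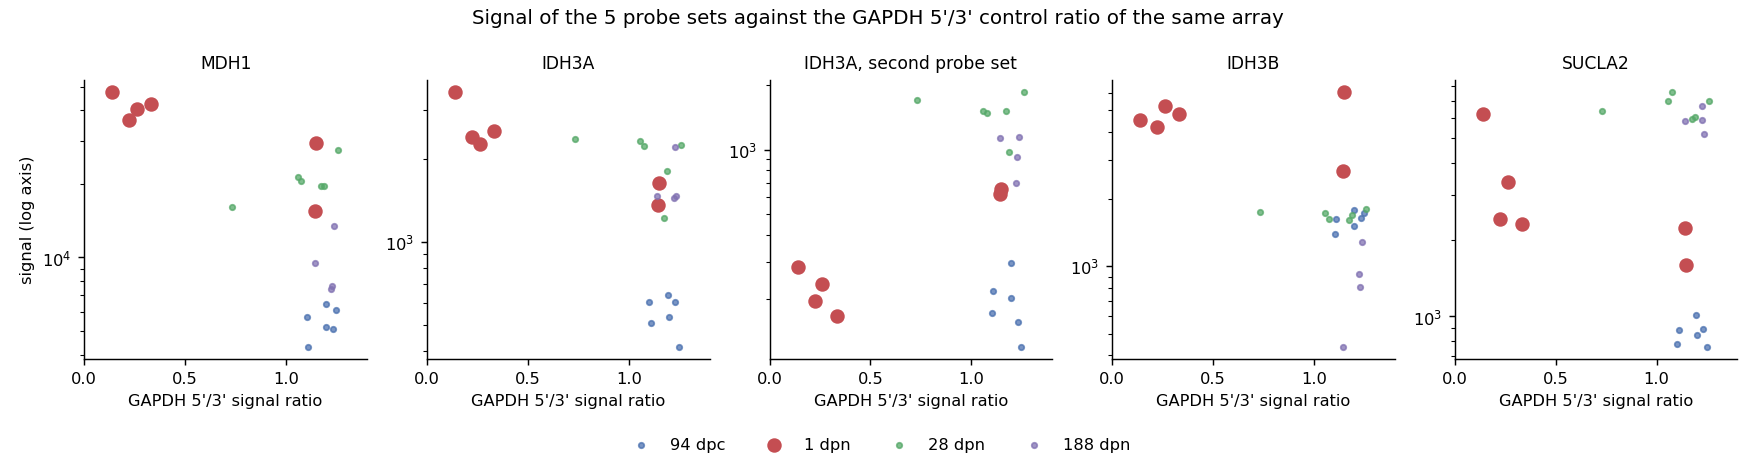
Signal (log axis) of the 5 probe sets against the GAPDH 5′/3′ control ratio of the same array, with large points for 1 dpn. The 4 newborn arrays with ratios of 0.140 to 0.332 lie above the 2 even newborn arrays for MDH1, the brighter IDH3A probe set and SUCLA2, and below them for the second IDH3A probe set.

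IDH3B encodes the beta subunit of the same enzyme, and its signal was highest at 1 dpn. At 94 dpc the lowest, median and highest signals were 1389.5, 1637 and 1787 (mean 1617 ± 146, n = 6), and at 1 dpn 2678, 4665 and 6013 (mean 4572 ± 1117, n = 6). The 28 dpn animals lay close together at 1608, 1722 and 1815 (mean 1708 ± 77.0, n = 6, a coefficient of variation of 4.51%). The 4 animals of 188 dpn spread more, at 921, 808, 437 and 1287 (mean 863 ± 350.3, a coefficient of variation of 40.6%). Newborns lay above all other animals, the fetuses and 28 dpn animals overlapped, and all 188 dpn animals lay below both.

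IDH3B rose by 1.45 from 94 dpc to 1 dpn (SE 0.21, 2.74-fold, adjusted p = 1.4e-05) and fell by 1.37 from 1 to 28 dpn (SE 0.21, 2.59-fold, adjusted p = 5.9e-05). Both steps were called on the even arrays too, at 1.31 and −1.23 (adjusted p = 0.0044 and 0.0107). From 94 dpc to 28 dpn the change was 0.08 (interval −0.35 to 0.52, adjusted p = 0.802). From 28 to 188 dpn it fell by 1.07 (SE 0.23, 2.10-fold, adjusted p = 0.0041). At 188 dpn it stood at −0.99 relative to the fetal level (SE 0.23, 1.98-fold, adjusted p = 0.0018). Without 188 dpn replicate 3, the lowest of the 4, IDH3B was still called lower, at −0.78 from 28 dpn (adjusted p = 0.0258) and −0.70 from 94 dpc (adjusted p = 0.0145).

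SUCLA2, the ADP-forming beta subunit of succinyl-CoA synthetase, rose in both early steps. Its lowest, median and highest signals were 761, 865 and 1017 at 94 dpc (mean 863 ± 92.5, n = 6), 1592, 2359 and 6252 at 1 dpn (mean 3025 ± 1679.8, n = 6) and 5950.0, 6709 and 7575 at 28 dpn (mean 6673 ± 643, n = 6). The 188 dpn animals had 5923, 6691, 5835 and 5219.8 (mean 5917 ± 603). Newborns were the most variable group, with a coefficient of variation of 55.5% against 9.64% to 10.7% at the other stages. Newborn replicate 5, which had the lowest GAPDH ratio (0.140), was the animal at 6252 and the only newborn within the range of the older animals.

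SUCLA2 rose by 1.65 from 94 dpc to 1 dpn (SE 0.22, 3.14-fold, adjusted p = 7.0e-06) and by a further 1.28 from 1 to 28 dpn (SE 0.22, 2.42-fold, adjusted p = 0.00026). The even arrays gave 1.12 (adjusted p = 0.00021) and 1.81 (adjusted p = 6.5e-06). The change from 28 to 188 dpn was −0.17 (interval −0.69 to 0.35, adjusted p = 0.738). At 28 dpn SUCLA2 was 2.93 above the fetal level (7.62-fold, adjusted p = 4.3e-09), and at 188 dpn 2.76 (6.76-fold, adjusted p = 1.6e-08). Its order of levels was 28 dpn and 188 dpn, which did not differ beyond their spread, then 1 dpn, then 94 dpc.

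**Figure D3:**
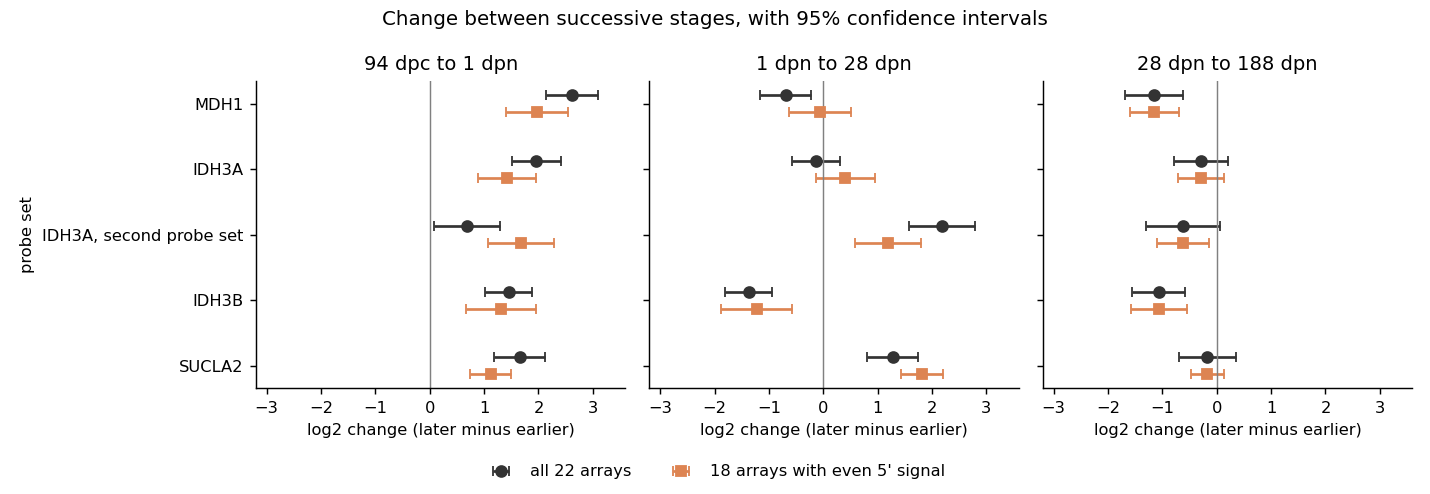
Log2 change of the 5 probe sets between successive stages, with 95% confidence intervals from limma, over all 22 arrays (circles) and over the 18 even arrays (squares). MDH1 from 1 to 28 dpn moves from −0.69 to −0.05 on the even arrays, and the 2 IDH3A probe sets move towards each other in the same step.

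Counted over the 5 probe sets, 4 were higher at 1 dpn than at 94 dpc, where 10.9% of all probe sets were called higher and 32.7% in either direction. The same 4 had signals that did not overlap, where 16.5% of all did not. From 1 to 28 dpn 2 were higher (13.9% of all) and 2 lower (8.39%), where 22.3% were called in either direction. In the step from 28 to 188 dpn 2 were lower (8.2%) and 0 higher (3.65%) by limma, with 0 of the other 3 at an unadjusted p under 0.05. Between 94 dpc and 28 dpn 4 were higher (13.1%, and 30.3% in either direction), whereas IDH3B was not called and 17.2% of all were lower. Further, between 94 dpc and 188 dpn 4 were higher (13.6%) and 1 lower (22.5%). From 1 to 188 dpn 2 were higher (14.2%) and 2 lower (15.7%). One of the higher ones, the second IDH3A probe set at 1.57, was 0.58 on the even arrays (adjusted p = 0.204) and 0.80 with the GAPDH ratio as a covariate (adjusted p = 0.120). In either direction 36.2% of all were called between 94 dpc and 188 dpn and 29.9% from 1 to 188 dpn. Signals did not overlap for 2 of the 5 from 1 to 28 dpn (8.03% of all), 2 from 28 to 188 dpn (13.3%), 4 between 94 dpc and 28 dpn (22.9%), 3 from 1 to 188 dpn (17.9%) and 5 between 94 dpc and 188 dpn (35.2%).

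Subunits of the same enzyme, and some other paired genes, changed unequally. Differences were taken within each array between the brightest probe sets of a gene and a partner, and set to 0 at the 94 dpc mean. A partner here is the gene set beside another, whether or not both belong to the same enzyme. They were compared between stages with a 2-sided exact permutation test over animals. For 12 pairs and 6 comparisons 72 tests were made, chosen after the values were seen, and 51 passed after Benjamini-Hochberg adjustment. The passes therefore describe these pairs and are not independent support. The share of other gene pairs that would pass, or not overlap, was not taken. Of all single probe sets 51.4% differed between stages. The smallest p that 6 against 6 animals can give is 0.002165, and 6 against 4 can give 0.009524. These differences show unequal change on the array and not the ratio of the transcripts.

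IDH3A gained on IDH3B after birth. IDH3A minus IDH3B was 0.51 ± 0.49 at 1 dpn (SD, n = 6, exact permutation test, adjusted p = 0.0794) and 0.11 on the even arrays, then 1.75 ± 0.33 at 28 dpn (n = 6, exact permutation, adjusted p = 0.00917) and 2.52 ± 0.70 at 188 dpn (n = 4, exact permutation, adjusted p = 0.0163). At 28 and 188 dpn no animal overlapped the fetuses. The gamma subunit IDH3G rose by 0.44 to 1 dpn (adjusted p = 0.0441) and by 0.46 to 28 dpn (adjusted p = 0.0484), and was 0.64 above the fetal level at 188 dpn (adjusted p = 0.0082, all limma). The first and last of these calls were lost after quantile normalization (limma adjusted p = 0.179 and 0.0511), and the first pair on the even arrays (limma adjusted p = 0.0672 and 0.398). IDH3B minus IDH3G was therefore 1.02 ± 0.46 at 1 dpn, −0.81 ± 0.26 at 28 dpn and −1.62 ± 0.82 at 188 dpn, and each of these differed from the fetuses without overlap (exact permutation, adjusted p = 0.00917, 0.00917 and 0.0163). With the even arrays alone the newborn value was 0.72. IDH3A minus IDH3G was 1.53 ± 0.63, 0.94 ± 0.51 and 0.90 ± 0.24 at the 3 postnatal stages (exact permutation, adjusted p = 0.00917, 0.0163 and 0.0163), and the newborn value was 0.84 on the even arrays. IDH3A here is its brighter probe set, which changed by 1.96, 1.83 and 1.54 from 94 dpc. The second one changed by 0.69, 2.87 and 2.26, and its differences were not taken. The course of IDH3A against its partners therefore depends on the probe set.

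SUCLA2 also gained on SUCLG1, with which it forms an enzyme, and on the alternative beta subunit SUCLG2. SUCLG1, the common alpha subunit, rose by 1.05 from 94 dpc to 1 dpn (adjusted p = 7.3e-06) and changed by 0.11 and −0.12 in the later steps. The GDP-forming beta subunit SUCLG2 rose by 0.92 (adjusted p = 0.0025; 0.57 on the even arrays, adjusted p = 0.162) and then changed by −0.41 and −0.14, neither called. SUCLA2 minus SUCLG1 was 0.61 ± 0.59 at 1 dpn, 1.77 ± 0.08 at 28 dpn and 1.72 ± 0.10 at 188 dpn (exact permutation against 94 dpc, adjusted p = 0.0177, 0.00917 and 0.0163). Against SUCLG2 it was 0.73 ± 0.52, 2.42 ± 0.38 and 2.39 ± 0.36 (adjusted p = 0.0163, 0.00917 and 0.0163, exact permutation). From 28 to 188 dpn these differences moved by −0.05 and −0.03 (adjusted p = 0.439 and 0.869, exact permutation).

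MDH1 was set beside its mitochondrial counterpart MDH2 and beside GOT1. MDH2 rose by 1.72 from 94 dpc to 1 dpn (adjusted p = 4.7e-08) and fell by 0.77 from 28 to 188 dpn (adjusted p = 0.0051). MDH1 minus MDH2 was 0.89 ± 0.45 at 1 dpn (adjusted p = 0.0163), 0.49 on the even arrays, then 0.53 ± 0.20 at 28 dpn (adjusted p = 0.0148) and 0.15 ± 0.38 at 188 dpn (adjusted p = 0.563, all exact permutation). GOT1, the cytosolic aminotransferase of the shuttle, rose by 2.97 from 94 dpc to 1 dpn and fell by 1.53 from 28 to 188 dpn (limma adjusted p = 2.7e-07 and 0.0050). MDH1 minus GOT1 was −0.36 ± 0.40 at 1 dpn (exact permutation, adjusted p = 0.0779) and 0.09 on the even arrays, then −0.52 ± 0.09 at 28 dpn (exact permutation, adjusted p = 0.00917) and −0.14 ± 0.12 at 188 dpn (exact permutation, adjusted p = 0.0962).

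**Figure D4:**
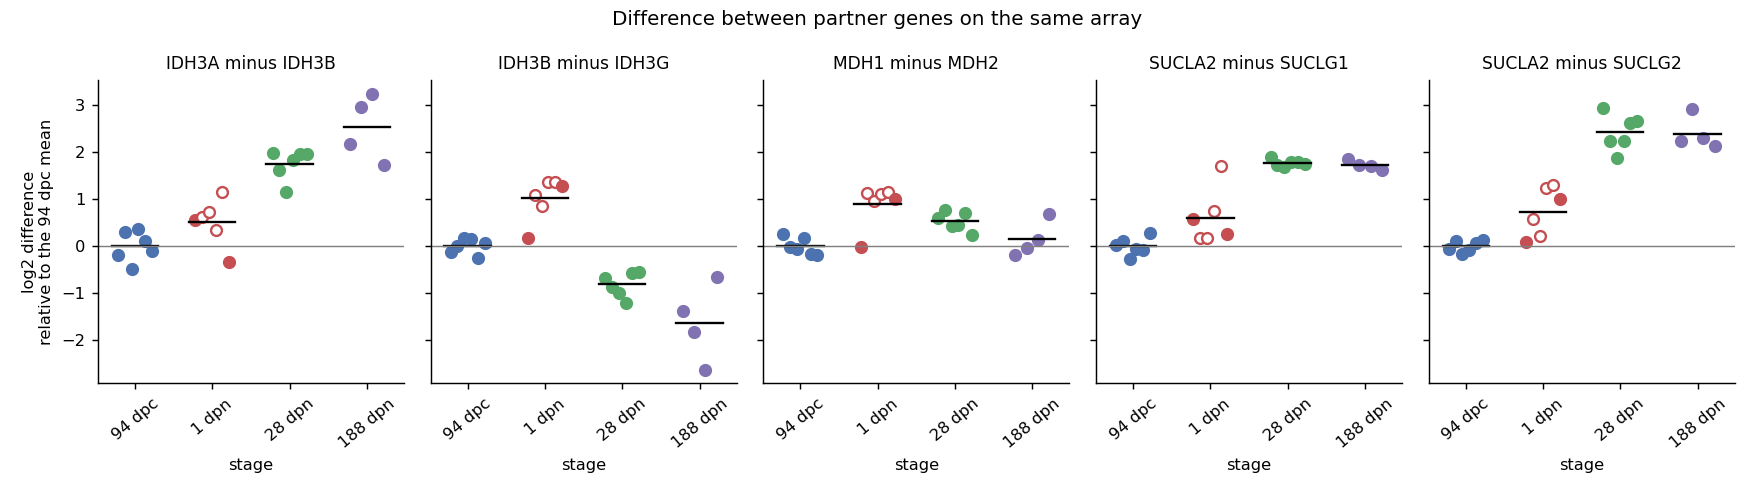
Log2 difference between partner genes on the same array, set to 0 at the 94 dpc mean; points are animals, open points are the 4 low newborn arrays, and bars are stage means. IDH3A minus IDH3B climbs to 2.52 and IDH3B minus IDH3G falls to −1.62 at 188 dpn, whereas MDH1 minus MDH2 comes back to 0.15.

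The 4 genes also diverged from one another. IDH3B minus SUCLA2 was −0.20 ± 0.79 at 1 dpn (exact permutation, adjusted p = 0.598) and 0.19 on the even arrays, then −2.85 ± 0.14 at 28 dpn (exact permutation, adjusted p = 0.00917) and −3.74 ± 0.70 at 188 dpn (exact permutation, adjusted p = 0.0163), the widest of the 12 pairs. MDH1 minus SUCLA2 went from 0.96 ± 0.62 at 1 dpn to −1.01 ± 0.23 at 28 dpn and −1.99 ± 0.53 at 188 dpn, each past the test against the fetuses (exact permutation, adjusted p = 0.0177, 0.00917 and 0.0163). Its newborn value was 0.40 after quantile normalization (exact permutation, adjusted p = 0.163) and 0.89 without the 2 arrays richest in liver or pancreas transcripts (exact permutation, adjusted p = 0.0595). MDH1 minus IDH3A was 0.65 at 1 dpn (exact permutation, adjusted p = 0.0163) and 0.02 after quantile normalization (exact permutation, adjusted p = 0.928). Across the 22 arrays MDH1 and IDH3A correlated at r = 0.85, IDH3A and SUCLA2 at 0.82, MDH1 and IDH3B at 0.68, and IDH3B and SUCLA2 at −0.18. With the second IDH3A probe set the r was 0.25 for MDH1 and 0.82 for SUCLA2. These points share stage, array and scaling.

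Most other cycle enzymes were also higher at 1 dpn than at 94 dpc. Of 21 listed genes of the cycle and its cytosolic counterparts 20 were measured, the 4 genes included. From 94 dpc to 1 dpn 18 were higher, where 10.9% of all probe sets were. The median change was 1.31 against −0.08 over all probe sets. On the even arrays 13 were higher (median 0.94), and after quantile normalization 14. Beside the 4, the largest rises were those of OGDH, the catalytic subunit of 2-oxoglutarate dehydrogenase (1.94, adjusted p = 1.9e-07), IDH2, the NADP-dependent mitochondrial isocitrate dehydrogenase (1.89, adjusted p = 7.6e-09), and MDH2. Citrate synthase (CS) rose by 1.48 (adjusted p = 1.0e-06), and the succinate dehydrogenase subunit SDHC by 1.41 (adjusted p = 2.8e-07). The 2 genes not called were cytosolic, ACO1 at −0.01 and IDH1 at 0.03.

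In the steps after 1 dpn fewer cycle genes were called. From 1 to 28 dpn 6 of 20 were called, where 22.3% of all probe sets were. Of these 3 were higher (SUCLA2, SDHB at 0.75 and IDH3G), where 13.9% of all were. The other 3 were lower (IDH3B, MDH1 and ACO1), where 8.39% of all were. The median was −0.06 against 0.10 over all probe sets. The ACO1 call was lost on the even arrays and after quantile normalization (limma adjusted p = 0.265 and 0.0933). On the even arrays 4 of the list were higher and 1 was lower (median 0.32), and after centring 2 were higher and 7 lower (median −0.26). From 28 to 188 dpn 7 were lower, where 8.2% of all probe sets were, and 13 were not called. The median was −0.36 against −0.12 over all probe sets. MDH1 at −1.15 and IDH3B at −1.07 had the largest falls of the list, followed by DLST at −0.81, a subunit of 2-oxoglutarate dehydrogenase. Between 94 dpc and 188 dpn 14 were higher and 2 lower (median 0.70 against −0.07), where 13.6% and 22.5% of all probe sets were. After quantile normalization 8 of the list were higher and 2 lower. The 2 lower genes were IDH3B and ACO1 (−0.55). SUCLA2 had the largest rise of the 20 over this interval, followed by IDH3A.

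**Figure D5:**
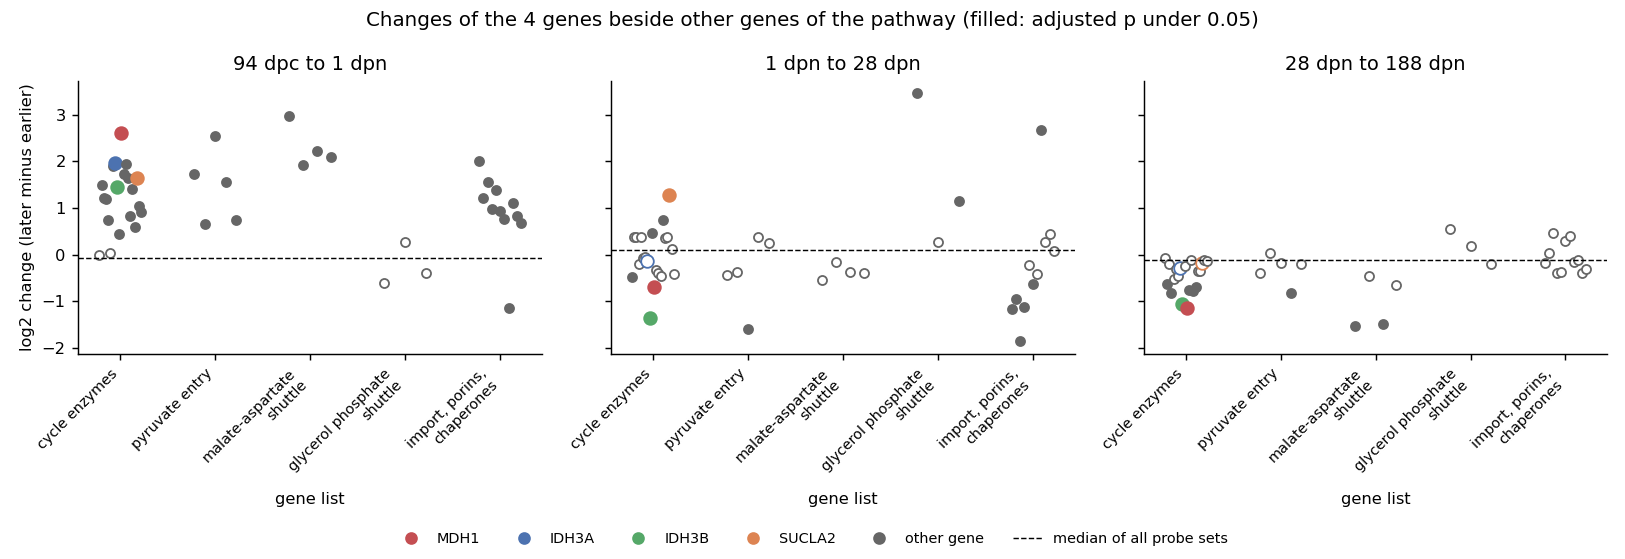
Log2 change of each measured gene in 5 lists between successive stages; filled points passed the limma test at an adjusted p under 0.05, coloured points are the 4 genes and the dashed line is the median of all probe sets. In the first step 18 of 20 cycle genes are filled above 0, and in the last step 7 are filled below 0.

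Genes for the entry of pyruvate into mitochondria were also higher at 1 dpn than at 94 dpc, where 10.9% of all probe sets were called higher. All 5 measured genes rose from 94 dpc to 1 dpn (median 1.56), among them the pyruvate carrier subunit MPC2 (2.55, adjusted p = 6.5e-08) and the pyruvate dehydrogenase subunits DLAT (1.73, adjusted p = 2.9e-06), PDHA1 (1.56, adjusted p = 1.0e-06) and PDHB (0.74, adjusted p = 0.00053). On the even arrays 4 of the 5 were called higher (median 1.04), and after quantile normalization 4 (median 1.64). MPC2 then fell by 1.60 to 28 dpn (adjusted p = 4.2e-05), the only one of the 5 called in that step. Of all probe sets 22.3% were called there. In this list 2 were lower after quantile normalization and 3 after centring. Of 3 measured kinases and phosphatases of pyruvate dehydrogenase, PDK4, which inactivates the enzyme, rose 27.0-fold from 94 dpc to 1 dpn (log2 4.76, SE 0.48, adjusted p = 2.1e-07) and changed by −0.28 and 0.76 later, neither called. PDK3 rose by 1.47 from 28 to 188 dpn (adjusted p = 0.0223).

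Genes of the malate-aspartate shuttle were higher at 1 dpn than at 94 dpc too, where 10.9% of all probe sets were called higher. All 4 other measured shuttle genes rose from 94 dpc to 1 dpn (median 2.15): GOT1, the 2-oxoglutarate carrier SLC25A11 (2.22, adjusted p = 3.7e-07), the aspartate-glutamate carrier SLC25A12 (2.09, adjusted p = 4.8e-05) and the mitochondrial aminotransferase GOT2 (1.92, adjusted p = 1.3e-08). From 1 to 28 dpn 0 of 4 were called by limma (0 at an unadjusted p under 0.05; median −0.39), and from 28 to 188 dpn GOT1 and SLC25A11 (−1.50, adjusted p = 0.00079) were lower. On the even arrays 1 of 4 was higher from 1 to 28 dpn, with the median turned to 0.48, and all 4 were lower from 28 to 188 dpn. The glycerol phosphate shuttle is the other route for cytosolic NADH. From 94 dpc to 1 dpn 0 of its 3 genes were called (0 at an unadjusted p under 0.05), and from 1 to 28 dpn the cytosolic dehydrogenase GPD1 rose by 3.46 (11.0-fold, adjusted p = 3.1e-05) and the mitochondrial GPD2 by 1.15 (adjusted p = 0.0235). GPD2 was above background on only 1 of the 6 newborn arrays, so its lower level is poorly measured, and the call was lost on the even arrays and after quantile normalization (limma adjusted p = 0.359 and 0.0608). The related GPD1L passed between 94 dpc and 188 dpn (0.72, adjusted p = 0.0197). GPD1 changed by −0.61 from 94 dpc to 1 dpn over all arrays (adjusted p = 0.375) and fell by 2.26 on the even arrays (adjusted p = 0.0048). Of the 2 even newborn arrays, replicate 1 was flagged as low for GPD1, at 154 against 1642 to 3402 in the other newborns. The even-array fall therefore leans on 1 flagged animal. Of the lactate dehydrogenase subunits, LDHB, the heart form, fell by 1.33 from 28 to 188 dpn (adjusted p = 0.0033), and LDHA, the muscle form, changed by −0.06 (adjusted p = 0.95).

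Markers of mitochondrial mass outside the cycle were higher at 1 dpn than at 94 dpc in 10 of 11 measured genes (median 0.97). Of all probe sets 10.9% were. On the even arrays 7 of the 11 were higher (median 0.84), and after quantile normalization 7 (median 0.62). The called genes included the chaperones HSPA9 (2.00, adjusted p = 4.6e-08) and HSPE1 (1.55, adjusted p = 5.6e-05) and the inner membrane scaffold PHB2 (0.97, adjusted p = 1.5e-05). The import receptor TOMM70 fell by 1.16 (adjusted p = 0.0161), whereas its change with the even arrays was 0.26 (adjusted p = 0.532), and it was above background on 2 of the 6 newborn arrays. From 1 to 28 dpn 5 were lower, HSPE1 (−1.86), HSPA9 (−1.16) and PHB2 (−1.12) among them, and only TOMM70 was higher (2.68). Of all probe sets 8.39% were lower and 13.9% higher in this step. The list had 4 lower and 2 higher on the even arrays, and 7 lower and 1 higher after centring. By limma 0 of 11 were called from 28 to 188 dpn (2 at an unadjusted p under 0.05), and 1 was lower on the even arrays and 1 after quantile normalization.

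Of 8 measured regulators of mitochondrial genes 3 were called from 94 dpc to 1 dpn, where 32.7% of all probe sets were called in either direction. In this step SIRT3, a mitochondrial deacetylase, rose by 0.93 (adjusted p = 0.0097) and PPARD by 0.67. TFAM, which packages mitochondrial DNA, fell by 0.51 (adjusted p = 0.0492). PPARA, also in the list, was above background on 0 of 6, 0 of 6, 0 of 6 and 0 of 4 arrays from the youngest to the oldest stage. TFAM was at −0.23 after quantile normalization (adjusted p = 0.376) and no regulator was called lower after centring, whereas on the even arrays SIRT3 and PPARD were not called (limma adjusted p = 0.348 and 0.683). PPARGC1A, a coactivator of mitochondrial genes, changed by −0.60 (adjusted p = 0.0915) and rose by 0.86 from 1 to 28 dpn (adjusted p = 0.0226). Newborn replicate 1 was flagged as low for it (119, others 324 to 503). PPRC1 fell by 0.69 (adjusted p = 0.0411) from 1 to 28 dpn and by 0.86 in the next step (adjusted p = 0.0384, and 0.0916 after quantile normalization). After centring no regulator was called higher from 1 to 28 dpn or lower from 28 to 188 dpn. Of 9 measured genes that feed or drain the cycle 4 were higher and 1 lower from 94 dpc to 1 dpn, where 10.9% and 21.7% of all probe sets were. On the even arrays 2 were higher and 1 lower. Among these genes OXCT1, which activates ketone bodies, fell by 1.42 from 94 dpc to 1 dpn (adjusted p = 0.0023) and rose by 2.47 to 28 dpn (adjusted p = 1.8e-05). ME1, the cytosolic malic enzyme, rose by 1.64 from 94 dpc to 1 dpn (adjusted p = 0.00056) and by 2.68 from 28 to 188 dpn (adjusted p = 8.9e-05). ME1 was above background on 4 of 6 fetal arrays. The mitochondrial malic enzyme ME3 rose by 1.78 from 94 dpc to 1 dpn (adjusted p = 0.00045) and fell by 1.37 from 28 to 188 dpn (adjusted p = 0.0251). PCK2, the mitochondrial enzyme that makes phosphoenolpyruvate from oxaloacetate, rose by 1.92 from 94 dpc to 1 dpn (adjusted p = 0.0060) and fell by 1.98 to 28 dpn (adjusted p = 0.0075). Neither change was called on the even arrays (limma adjusted p = 0.123 and 0.136). PCK2 was above background on 3 of 6 fetal and 4 of 6 28 dpn arrays.

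Fibre type genes also moved while the 4 genes did. Of 9 measured slow fibre genes 4 were higher from 1 to 28 dpn (13.9% of all probe sets) and 3 lower from 28 to 188 dpn (8.2%). The 3 lower ones were CASQ2 (−2.23, above background on 2 of 4 arrays at 188 dpn), TPM3 (−1.37) and MYL3 (−1.35). Of 6 fast fibre genes all were higher at 28 and at 188 dpn than at 94 dpc (13.1% and 13.6% of all probe sets). After quantile normalization only 2 of 6 were in each comparison (medians 0.31 and 0.33). MYH2 rose by 2.76 from 1 to 28 dpn (adjusted p = 4.7e-07) and ATP2A1 rose by 3.30 from 94 dpc to 1 dpn (adjusted p = 5.4e-10). The fast troponins TNNT3 and TNNI2 rose by 1.18 and 0.56 from 1 to 28 dpn (limma adjusted p = 3.6e-06 and 0.0067; TNNI2 0.0720 after quantile normalization), and the slow troponin TNNT1 by 1.01 (adjusted p = 0.0016). The part of fibre type in the changes of the 4 genes was not tested.

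The genes whose pattern over the 22 arrays was most like each of the 4 were taken by Pearson r among 4944 genes brighter than the median probe set. For MDH1 these were GOT1 (0.988), NDUFA9 (0.979), SDHA (0.976), LOC100525869 (0.976) and ATP5H (0.975), 4 of which were also among the 5 closest on the 18 even arrays. For IDH3A they were COX6C (0.960), CKMT2 (0.952), COPS7A (0.950), GOT2 (0.946) and NDUFB1 (0.945), with 3 kept on the even arrays. IDH3B had AQP1 (0.946), WDR1 (0.944), COMTD1 (0.941), SCAND1 (0.933) and COX7A2 (0.926), and 1 of them, WDR1, was kept. SUCLA2 had MYOZ1 (0.973), YBX3 (0.973), PGK1 (0.972), ENO3 (0.958) and NEB (0.953), of which 3 were kept. NDUFA9, ATP5H, COX6C, NDUFB1 and COX7A2 encode parts of the respiratory chain or ATP synthase, and PGK1 and ENO3 are glycolytic enzymes. The arrays share stage and scaling, so these r values rank patterns only.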

How the data were processed

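Per the labels' protocols, RNA came from TRI Reagent extraction with a DNase step and RNeasy columns, and 0.5 µg of it gave biotinylated cRNA for each array. The deposited intensity values were linear, on 1 scale for all arrays. GCOS 1.1.1 is named in the submitters' processing notes, with no role given. The scaling to a common trimmed mean (2% off each end) was read from the values. No detection calls were in the table used, so background was the 95th percentile of 23 control probe sets for absent targets.

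No further normalization was applied. Stages were compared on log2(signal + 16) with limma 3.58.1 in R 4.3.3, with 1 mean per stage over all 22 arrays and p-values adjusted by Benjamini and Hochberg's method for 23999 probe sets, 124 controls being left out. Calls were made under an adjusted p of 0.05. The pseudocount understates the change of dim probe sets. Within-array differences were tested with exact permutation tests in Python 3.11.15 (scipy 1.17.1). The code was tested on simulated data. The number of arrays limits precision.

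Of the probe sets, 10069 carried 1 symbol, 198 several and 13732 none in the platform annotation. The gene of a list is its brightest probe set. Up to 4 genes per list were named, those with the largest change among genes called in the F test, and the 5 genes most like each of the 4 by Pearson r. MDH2, IDH3G, SUCLG1, SUCLG2, SDHB, DLST, ACO1, IDH1, PPARD, PPARA, ALB, APOA1 and APOB were named outside this rule after their values were seen. The 4 genes and all lists were chosen with earlier results of these data known. Sequences, promoter motifs and genome positions were not analysed here.

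Alternatives were quantile normalization, median centring, array weights, a robust variance trend, 1 as the pseudocount, the brighter probe sets alone, probe sets averaged by gene, only the stages compared, the GAPDH ratio as a covariate, the even arrays, leaving out the 2 arrays richest in liver or pancreas transcripts, and leaving out each array. The low arrays alone, and the even arrays for patterns and partners, were chosen after seeing the data.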

Additional observations from a re-analysis of the deposited data

Results flagged for a closer look

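Within each stage, the highest or lowest animal was compared with its group by Dixon's criterion for the 5 probe sets and the other named genes. Of 176 groups 12 held an animal past the 95% critical value, where chance gives about 1 in 20.

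Of the 20 groups of the 4 genes 2 held such an animal. IDH3A in 188 dpn replicate 2 had a signal of 2203, above 1436 to 1469 in the other 3. The second IDH3A probe set in 28 dpn replicate 2 had 970.3, below 1486 to 1847 in the other 5.

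Newborn replicate 1, an even array, was lowest for GPD1 (154, others 1642 to 3402), HSPE1 (15639, others 37562 to 59991), LDHA (5543, others 26057 to 43599) and PPARGC1A (119, others 324 to 503). OXCT1 was lowest in 1 dpn replicate 2, a low array, at 19.6 (others 121 to 264), which is below background. OXCT1 and MYH2 were lowest in 28 dpn replicate 4, at 630.3 (others 809 to 849) and 40149.5 (others 70504 to 92459.8). At 188 dpn, MPC2 was lowest in replicate 1 at 9825 (others 11669.7 to 11973) and GPD2 in replicate 4 at 49.7 (others 134 to 145), below background. CS was lowest in 94 dpc replicate 6 at 5687 (others 7121 to 7255).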

How the results depend on the processing

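Each called change of IDH3B and SUCLA2, and of MDH1 and the brighter IDH3A probe set apart from those below, kept its direction and call in 34 settings. MDH1 from 1 to 28 dpn, −0.69 as reported, was not called on the even arrays (−0.053), with the GAPDH ratio as a covariate (−0.22), without the arrays richest in liver or pancreas transcripts (−0.67) or with only those stages fitted (−0.69), and ranged from −0.91 to −0.59 with single arrays left out. MDH1 from 94 dpc to 188 dpn was 0.41 after quantile normalization and 0.58 to 0.87 with single arrays left out. IDH3A from 1 to 28 dpn turned positive on the even arrays (0.41), with the covariate (0.39) and as the mean of its probe sets (1.02, adjusted p = 0.00023), and was −0.27 to 0.0026 with single arrays left out. IDH3A from 1 to 188 dpn was 0.12, 0.17 and 0.57 (adjusted p = 0.0332) in these settings and −0.70 with the low arrays only (adjusted p = 0.018). SUCLA2 from 28 to 188 dpn was 0.032 after centring. The second IDH3A probe set from 94 dpc to 1 dpn, 0.69 as reported, stayed not called in 24 of 33 settings. It was called at 0.95 after quantile normalization and after centring (limma adjusted p = 0.0119 and 0.0191). On the even arrays and with the covariate it was 1.68 and 1.44 (limma adjusted p = 0.00033 and 0.0028). A robust variance trend and the brighter probe sets alone called it too (limma adjusted p = 0.0481 and 0.0435). The count of called cycle genes from 1 to 28 dpn, 6 as reported, was 10 with the low arrays only, 3 without the liver- or pancreas-rich arrays, 3 with only those stages, and 3 to 9 with single arrays left out (3 without 1 dpn replicates 2 or 5 or 28 dpn replicate 2). From 1 to 188 dpn it was 13 with the low arrays only, not 8, and from 94 dpc to 188 dpn 10 after quantile normalization, not 16. The causes were not tested. No paired analysis was possible because the labels give no replicate numbers shared between stages.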
